A study of Mus musculus with 10 samples.

Results

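The keratins, the intermediate filament proteins of epithelia, were followed gene by gene in 10 mouse teratomas that carried 1 of 3 forms of human VHL. The family was taken as every probe set paired with a single gene symbol made of Krt and a number, which leaves out the keratin-associated proteins. It held 51 genes of the 18820 tested, each with 1 probe set. By their usual place of expression, 5 were simple keratins, 18 squamous keratins, 21 hair keratins and 7 other keratins. By protein type, 28 were type I and 23 type II. A further probe set shared by Krt81, Krt83 and Krt87 names no single gene and was left out.

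A teratoma grows from pluripotent cells placed in a host animal, and squamous, glandular and neural tissue commonly lie side by side in it. All 3 groups grew from J1 embryonic stem cells of the Sv/129 background in which both copies of mouse Vhl were lost, so the deletion is shared by every array. The cells were given a human VHL cDNA with the P81S change (4 arrays), with the R167Q change (3 arrays) or of wildtype sequence (3 arrays), injected under the skin of female nude (nu/nu) mice, and each tumour was taken once its longest side reached 1 cm. The labels class P81S tumours as apoptosis resistant and R167Q and wildtype tumours as apoptotic. The 4 P81S arrays stand for 2 clones, which the labels do not assign to arrays, and the promoter that drives the cDNA is not given in the sources used here. The titles call the replicates biological without naming animals or cultures, so p-values measure only the spread between these tumours. In tumour RNA, fewer cells of a type and less RNA per cell cannot be told apart.

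A keratin filament is built from pairs of 1 type I and 1 type II protein, so cells make keratins in matched pairs. Simple epithelia, such as those of gut and ducts, use Krt8 with Krt18, joined by Krt7, Krt19 and Krt20. Basal cells of stratified epithelia use Krt5 with Krt14, and cells that leave the basal layer switch to Krt1 with Krt10 in epidermis or to Krt4 with Krt13 in mucosa such as the oesophagus. Hair keratins are made in the hair shaft and its inner root sheath. The type I genes lie together on chromosome 11 and the type II genes on chromosome 15. In GRCm38.p6, 27 members lay between chr11:99232761-100269951, from Krt222 to Krt42. The other 24 lay between chr15:101348315-102032026, from Krt80 to Krt18, the 1 type I gene placed among the type II genes.

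The RefSeq promoter table of GRCm38.p6 held an entry for 36 of the 51 keratins. The 250 bases before the listed start are shown for Krt8 with Krt18, for Krt5 with Krt14, and for Krt10 and Krt13 of the type I cluster. Krt1, the only keratin called with all arrays, had no entry. Capitals mark a match to 1 of 4 motifs, searched on both strands. The TATA box was written TATAAA and the GC box GGGCGG. The AP-1 motif was written TGANTCA, where N stands for any base, and the motif of LEF1 and its relatives CTTTGA. Each is written 5′ to 3′ on its gene's strand. Krt8 is at chr15:102004343-102004592 (minus strand), Krt18 at chr15:102027966-102028215 (plus strand) and Krt5 at chr15:101712906-101713155 (minus strand). Krt14 is at chr11:100206031-100206280, Krt10 at chr11:99389365-99389614 and Krt13, which has a pair of entries, at chr11:100121567-100121816, all on the minus strand.
Krt8: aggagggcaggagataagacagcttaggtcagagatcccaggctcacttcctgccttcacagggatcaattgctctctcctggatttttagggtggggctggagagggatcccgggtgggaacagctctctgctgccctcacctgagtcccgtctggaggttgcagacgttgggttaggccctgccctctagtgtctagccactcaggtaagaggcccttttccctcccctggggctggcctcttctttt
Krt18: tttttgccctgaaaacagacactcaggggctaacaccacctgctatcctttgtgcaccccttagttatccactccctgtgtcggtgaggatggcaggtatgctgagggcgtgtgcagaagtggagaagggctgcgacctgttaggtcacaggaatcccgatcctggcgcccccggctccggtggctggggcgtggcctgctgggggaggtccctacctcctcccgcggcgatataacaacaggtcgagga
Krt5: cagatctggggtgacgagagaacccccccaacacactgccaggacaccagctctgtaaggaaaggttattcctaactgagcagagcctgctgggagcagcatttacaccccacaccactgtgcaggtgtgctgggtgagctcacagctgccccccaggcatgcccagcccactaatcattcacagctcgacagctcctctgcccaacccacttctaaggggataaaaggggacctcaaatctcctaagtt
Krt14: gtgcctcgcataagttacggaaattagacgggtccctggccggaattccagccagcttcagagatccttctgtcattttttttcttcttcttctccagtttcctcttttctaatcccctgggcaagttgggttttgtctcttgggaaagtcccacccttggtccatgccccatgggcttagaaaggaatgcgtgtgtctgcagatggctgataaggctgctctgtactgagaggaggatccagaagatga
Krt10: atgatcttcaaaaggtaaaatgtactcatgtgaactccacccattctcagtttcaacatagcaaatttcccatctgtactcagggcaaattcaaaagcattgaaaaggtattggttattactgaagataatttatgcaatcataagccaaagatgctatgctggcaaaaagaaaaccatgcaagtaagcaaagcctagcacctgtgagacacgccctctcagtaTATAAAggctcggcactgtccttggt
Krt13: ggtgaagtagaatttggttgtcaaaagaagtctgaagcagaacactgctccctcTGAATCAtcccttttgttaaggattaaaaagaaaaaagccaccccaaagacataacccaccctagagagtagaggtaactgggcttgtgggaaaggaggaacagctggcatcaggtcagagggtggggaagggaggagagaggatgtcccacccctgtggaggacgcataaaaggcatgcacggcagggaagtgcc
Krt10 held TATAAA from 26 to 21 bases before its start. This Krt13 entry held TGANTCA from 196 to 190 bases before its start, with A at the free base. The other Krt13 entry, not shown, held it with C there, from 183 to 177 and from 34 to 28 bases before its start. The windows of Krt8, Krt18, Krt5 and Krt14 matched none of the 4 motifs. The Krt14 window lies within the span of its gene, chr11:100203162-100207510, and the bases before the outer end of that span were not searched. The Krt10 window also lies within the span of its gene, chr11:99385254-99397449. TATAAA was found in 17 of 37 keratin promoters (45.9%), against 12.4% of all 32841 promoters of the same length. It stood in 1 of 4 simple, 3 of 12 squamous, 13 of 17 hair and 0 of 4 other keratin promoters. GGGCGG was in 2 of 37 keratin promoters (5.41%), against 32.7% of all promoters. CTTTGA was in 9 of 37 (24.3%), against 13.8%, and TGANTCA in 2 of 37 (5.41%), against 6.75%. Both promoters with TGANTCA belong to 1 gene, as the pair of Krt13 entries. These are matches of letters and not measured binding sites.

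One tumour stood apart before any comparison of groups. P81S replicate 1 was the highest of the 10 arrays in 28 of 51 keratins (54.9%), against 15.9% of all tested genes. It exceeded the mean of P81S replicates 2 to 4 by more than 1 log2 unit in 19 of 51 keratins (37.3%), against 4.63% of all genes. These 19 were all 5 simple keratins, 11 of 18 squamous, 1 of 21 hair and 2 of 7 other keratins. Over tested genes, P81S arrays correlated with each other at r of 0.966 to 0.989, R167Q arrays at 0.988 to 0.989 and wildtype arrays at 0.989 to 0.993, across genes, which are not independent replicates. The median of the array's unannotated control probe sets was 5.40 log2 in P81S replicate 1 and 5.93 to 6.24 in the other 9 arrays, while its median over tested genes was 8.07 against 7.95 to 8.05. The part of this difference between arrays in the keratin values was not tested. Results are therefore given with and without P81S replicate 1.

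**Figure D1:**
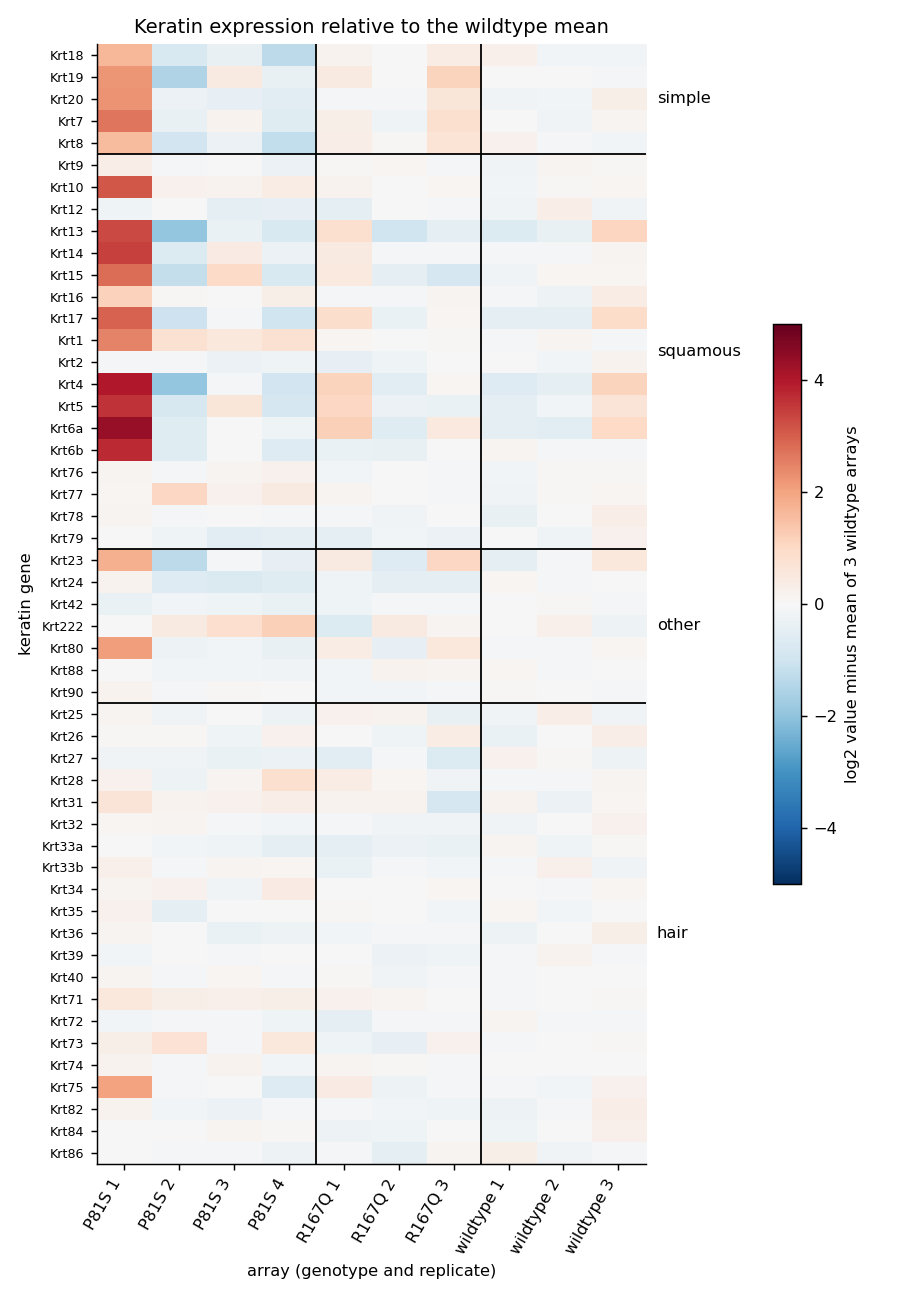
Deviation of each of the 51 keratins (rows, grouped by class) from its own wildtype mean, in log2 units, in each of the 10 arrays (columns, P81S, then R167Q, then wildtype). All 5 simple rows and many squamous rows are strongly positive in P81S replicate 1, with Krt4 at 4.00 and Krt6a at 4.35, while other squamous rows such as Krt2 and most hair rows stay near 0 in every array.

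P81S against wildtype asks which genes differ between the apoptosis-resistant mutant and the normal protein. Krt1, the type II keratin of suprabasal epidermis, was the only keratin called. It rose by 1.12 ± 0.38 log2 (SE) in P81S over wildtype, with an adjusted p of 0.0408 by limma with Benjamini-Hochberg adjustment. That is 1 of 51 keratins (1.96%), where 34.7% of all tested genes were called. The P81S and wildtype arrays did not overlap in 4 keratins (7.84%), against 40.6% of all genes: Krt1, Krt10 and Krt71 were higher in every P81S array, and Krt42 lower. Both shares lie below the background. The median log2 difference was 0.05 over keratins and 0.01 over all genes.

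R167Q against wildtype gave 0 called keratins by limma, where 0.0903% of all genes were called. At an unadjusted p under 0.05 there were 2 keratins, and the lowest adjusted p by limma was 0.475, for Krt33a. The arrays did not overlap in 3 keratins (5.88%), against 19.3% of all genes, namely Krt24, Krt33a and Krt72, each lower in R167Q. P81S against R167Q gave 0 called keratins by limma, where 22.5% of all genes were called, with 2 at an unadjusted p under 0.05. Arrays did not overlap in 4 keratins (7.84%), against 30.7% of all genes, and Krt1, Krt10, Krt71 and Krt90 were the higher ones in P81S. Krt33a, Krt42, Krt71, Krt72 and Krt90, and Krt6b and Krt24 further on, were singled out after their values were seen.

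The fit was repeated without P81S replicate 1. That tumour was singled out for its high keratin values, so keratin calls made without it depend on the same values and are given as a description. In P81S against wildtype 5 keratins then passed, where 36.9% of all genes did. The log2 difference was -0.82 ± 0.23 for Krt8, -0.81 ± 0.22 for Krt18 and -0.65 ± 0.13 for Krt24 (adjusted p 0.0154, 0.0148 and 0.0027 by limma). It was 0.68 ± 0.14 for Krt1 and 0.82 ± 0.29 for Krt222 (adjusted p 0.00296 and 0.0465 by limma). In P81S against R167Q 3 keratins then passed, where 26.1% of all genes did. The log2 difference was -1.18 ± 0.23 for Krt8, -0.997 ± 0.22 for Krt18 and 0.62 ± 0.14 for Krt1 (adjusted p 0.0041, 0.00831 and 0.00784 by limma). With all arrays neither Krt8, Krt18, Krt24 nor Krt222 passed the test in either comparison.

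**Figure D2:**
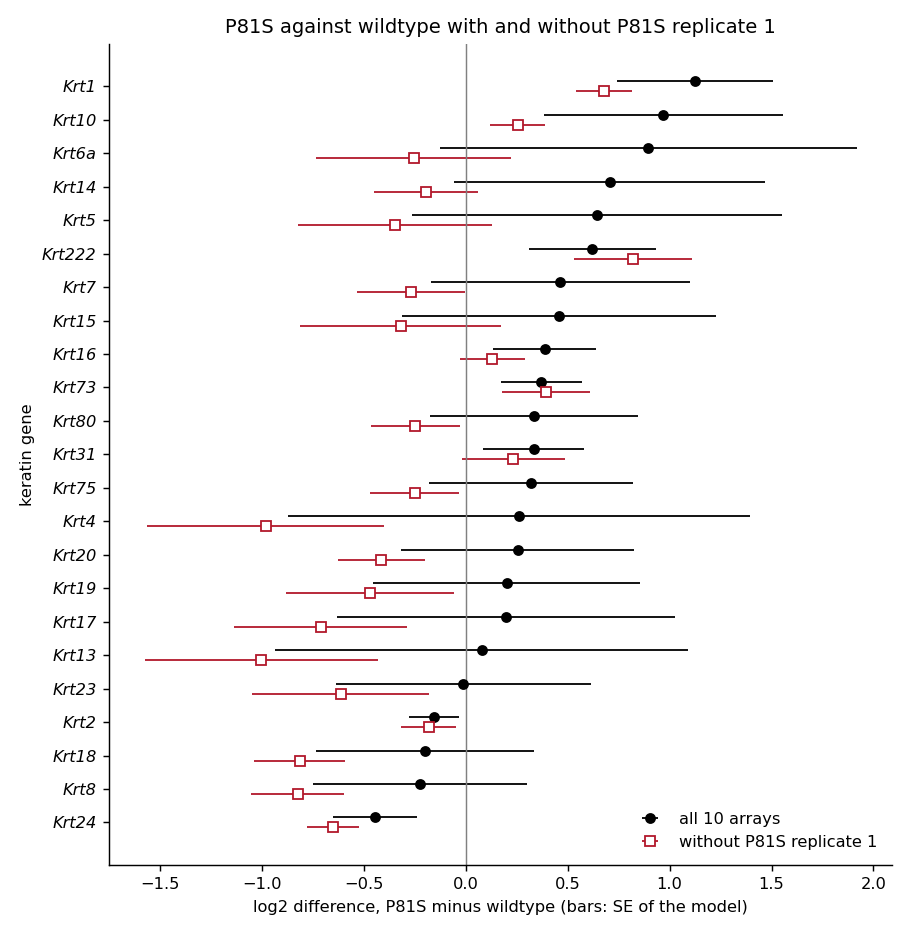
Log2 difference of the keratins described by array (rows) in P81S over wildtype, with SE bars, with all 10 arrays and without P81S replicate 1. Krt8 stands at -0.22 with all arrays and -0.82 without that tumour, and Krt1 at 1.12 and 0.68.

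The simple keratins, which line single-layered epithelium, were highest in P81S replicate 1. In 3 of 5, Krt8, Krt18 and Krt20, the other 3 P81S tumours lay below every wildtype and R167Q tumour. In Krt7 and Krt19 they did not. Over the family this was so in 4 of 51 keratins, against 3043 of 18820 tested genes. P81S replicate 1 was set aside after its keratin values were seen. In log2 units, Krt8 had 12.60, 10.06, 10.73 and 9.81 in P81S (replicates 1 to 4), 11.37, 11.08 and 11.69 in R167Q and 11.24, 10.94 and 10.89 in wildtype. The 3 remaining P81S values lie below every R167Q and wildtype value, so the P81S values lie on both sides of the other groups. Its mean was 10.80 ± 1.26 in P81S, 11.38 ± 0.31 in R167Q and 11.03 ± 0.19 in wildtype (SD, n = 4, 3 and 3). Krt18, its partner, had 11.41, 8.99, 9.40 and 8.45 in P81S, 9.94, 9.74 and 10.15 in R167Q and 10.03, 9.63 and 9.63 in wildtype. The P81S arrays stood in the same order as for Krt8. With all arrays the P81S-wildtype differences were -0.22 ± 0.52 and -0.20 ± 0.53 log2 (adjusted p 0.787 and 0.814 by limma).

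Krt19, a type I keratin of ducts and glands, had 11.62, 7.91, 9.84 and 9.05 in P81S, 9.86, 9.38 and 10.50 in R167Q and 9.42, 9.44 and 9.36 in wildtype. Its SD was 1.56 in P81S, 0.56 in R167Q and 0.04 in wildtype. Krt7, a type II keratin of ducts, had 10.23, 7.19, 7.74 and 6.98 in P81S, 7.87, 7.36 and 8.39 in R167Q and 7.60, 7.40 and 7.72 in wildtype. For both genes the P81S arrays overlapped those of the other groups. Krt20, known from gut and urinary tract lining, had 8.05, 5.51, 5.36 and 5.26 in P81S, 5.67, 5.69 and 6.39 in R167Q and 5.63, 5.64 and 6.10 in wildtype. Its 3 lower P81S values were below all 6 values of the other groups. They also lay below the control probe set medians of those arrays, 5.93 to 6.07. Whether Krt20 values this low reflect expression was not tested. R167Q replicate 3 was the highest R167Q array for 5 of 5 simple keratins, and P81S replicate 4 the lowest P81S array for 4 of 5. The matching shares over all genes were not counted.

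The basal keratins Krt5 and Krt14, the pair of the proliferating layer of stratified epithelium, were led by the same tumour. Krt5 had 11.77, 7.34, 8.78 and 7.31 in P81S, 9.20, 7.86 and 7.82 in R167Q and 7.66, 8.003 and 8.80 in wildtype. Krt14 had 10.40, 6.31, 7.37 and 6.68 in P81S, 7.43, 6.94 and 6.87 in R167Q and 6.90, 6.93 and 7.11 in wildtype. P81S replicate 1 exceeded the mean of the other P81S tumours by 3.96 log2 for Krt5 (15.6-fold) and 3.61 for Krt14 (12.2-fold). The remaining P81S arrays overlapped those of R167Q and wildtype. The P81S-wildtype differences were 0.64 ± 0.91 and 0.71 ± 0.76 log2 and did not pass the test (adjusted p 0.636 and 0.525 by limma). Without P81S replicate 1 they turned to -0.35 for Krt5 and -0.20 for Krt14. Krt15, another basal keratin, had 10.33, 6.37, 8.51 and 6.78 in P81S, 8.04, 7.09 and 6.69 in R167Q and 7.37, 7.62 and 7.63 in wildtype. Krt17, found in skin appendages, had 10.49, 6.52, 7.47 and 6.54 in P81S, 8.44, 7.24 and 7.64 in R167Q and 7.11, 7.10 and 8.47 in wildtype.

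The mucosal pair Krt4 and Krt13 had the widest spread of the family. Krt4 had 11.32, 5.39, 7.27 and 6.37 in P81S, 8.43, 6.79 and 7.44 in R167Q and 6.69, 6.84 and 8.44 in wildtype. Krt13 had 11.30, 6.05, 7.66 and 7.22 in P81S, 8.79, 6.98 and 7.51 in R167Q and 7.28, 7.61 and 9.05 in wildtype. P81S replicate 1 was the highest array and P81S replicate 2 the lowest for both, and R167Q replicate 1 and wildtype replicate 3 were the highest of their groups. P81S replicate 1 stood 31.5-fold above the mean of the other P81S tumours for Krt4 and 4.32 log2 above it for Krt13. The P81S-wildtype differences were 0.26 ± 1.13 and 0.08 ± 1.01 log2 (adjusted p 0.887 and 0.965 by limma). Without P81S replicate 1 they turned to -0.98 for Krt4 and -1.002 for Krt13.

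**Figure D3:**
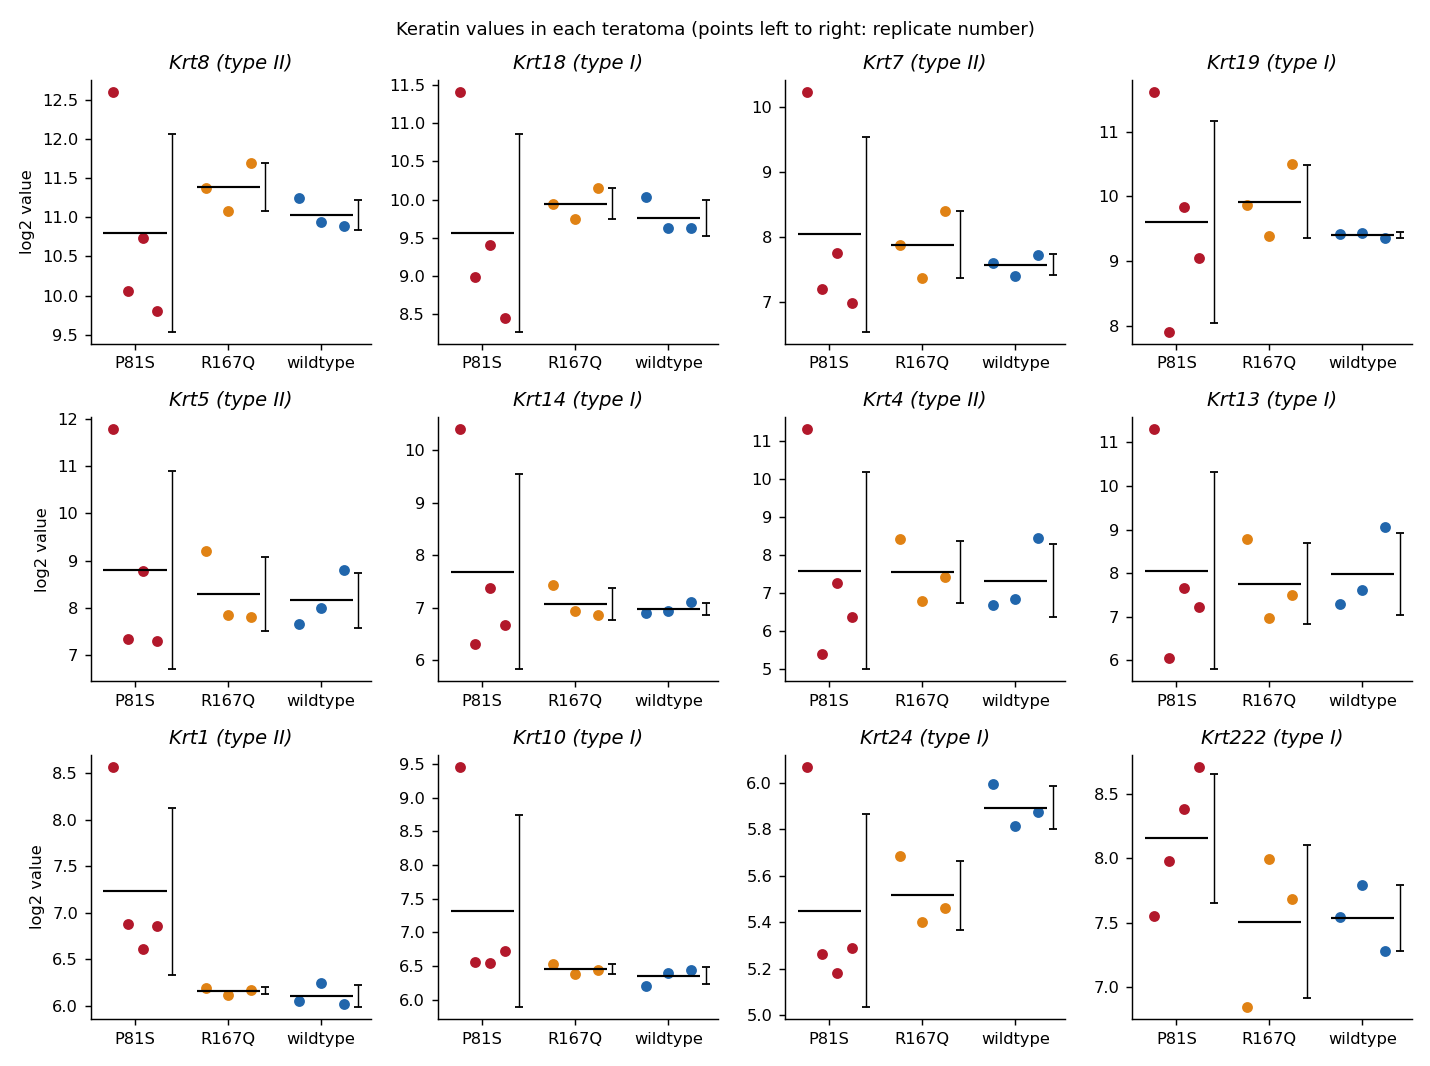
Log2 values of 12 keratins (panels) in each array, with points for P81S, R167Q and wildtype tumours from left to right, a bar at each group mean and a whisker of 1 SD. For Krt8, Krt5 and Krt4, P81S replicate 1 lies above every other array, at 12.60, 11.77 and 11.32.

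Krt1 and Krt10, the pair of epidermis above its basal layer, were higher in every P81S tumour than in every other tumour, and Krt1 passed the test against wildtype. Krt1 had 8.57, 6.88, 6.62 and 6.86 in P81S, 6.19, 6.12 and 6.17 in R167Q and 6.06, 6.24 and 6.02 in wildtype. Each P81S tumour lay above all 6 others, with P81S replicate 1 the farthest. The R167Q and wildtype values of Krt1 lay near the control probe set medians of those arrays, 5.93 to 6.24. Whether Krt1 values this low reflect expression was not tested. The call in P81S against wildtype was lost when any 1 wildtype or R167Q array was left out, with adjusted p between 0.00296 and 0.114 over the 10 fits that each left out 1 array, by limma. Against R167Q the difference was 1.07 ± 0.38 log2 (adjusted p 0.0689 by limma). Krt10, its type I partner, had 9.46, 6.56, 6.54 and 6.72 in P81S, 6.53, 6.38 and 6.43 in R167Q and 6.21, 6.40 and 6.45 in wildtype. The lowest P81S value stood just above the highest R167Q value, and the difference from wildtype of 0.97 ± 0.59 did not pass the test (adjusted p 0.238 by limma). Without P81S replicate 1 it was 0.26. Krt2, of the upper epidermis, had 4.14, 4.16, 3.93 and 4.01 in P81S, 3.80, 4.01 and 4.21 in R167Q and 4.19, 4.07 and 4.38 in wildtype, with overlapping groups.

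Krt6a and Krt16 are made in wounded or fast-dividing squamous epithelium. Krt6a had 10.22, 5.28, 5.90 and 5.66 in P81S, 7.05, 5.26 and 6.36 in R167Q and 5.41, 5.33 and 6.87 in wildtype. Krt16 had 5.29, 4.20, 4.17 and 4.43 in P81S, 4.03, 4.04 and 4.26 in R167Q and 4.04, 3.88 and 4.49 in wildtype. P81S replicate 1 led the other P81S tumours by 4.60 log2 for Krt6a and by 1.02 for Krt16. Krt6b, a close copy of Krt6a that may share its probe signal, had 8.75 in P81S replicate 1 and 4.36 to 5.14 in the other 9 arrays. Within groups, wildtype replicate 3 was the highest wildtype array for 14 of 18 squamous keratins. R167Q replicate 1 was the highest R167Q array for 10 of 18. The matching shares over all genes were not counted.

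Of the 21 hair keratins, 17 (80.95%) ranged over less than 1 log2 unit across the 10 arrays, against 62.7% of all tested genes. Their values lay between 3.89 and 8.21. None was called in any of the 3 comparisons. The hair mean was 5.13 to 5.50 over the 10 arrays, where the median over tested genes was 7.95 to 8.07. In every array except P81S replicate 1 it also lay below the median of the control probe sets, which was 5.93 to 6.24 there. Whether values this low reflect expression was not tested. Krt75, of the companion layer around the inner root sheath, had 8.21, 6.08, 6.16 and 5.56 in P81S, 6.58, 5.92 and 6.10 in R167Q and 6.09, 6.06 and 6.40 in wildtype, and was the 1 hair keratin in which P81S replicate 1 exceeded the mean of the other P81S tumours by more than 1 log2 unit. Krt31, of the hair cortex, had 5.97, 5.50, 5.58 and 5.66 in P81S, 5.52, 5.53 and 4.52 in R167Q and 5.53, 5.05 and 5.45 in wildtype. Krt73, of the inner root sheath, had 5.71, 6.12, 5.36 and 5.93 in P81S, 5.21, 5.004 and 5.63 in R167Q and 5.37, 5.38 and 5.48 in wildtype. The groups overlapped for all 3 genes. Krt71, another inner root sheath keratin, had 6.20, 5.96, 5.93 and 5.97 in P81S, 5.88, 5.80 and 5.66 in R167Q and 5.62, 5.66 and 5.75 in wildtype, without overlap between P81S and the others, and its adjusted p against wildtype was 0.0608 by limma.

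Among the other keratins Krt23 and Krt80 followed the simple and squamous ones. Krt23 had 8.19, 5.09, 6.30 and 5.97 in P81S, 6.83, 5.75 and 7.43 in R167Q and 5.97, 6.32 and 6.92 in wildtype. Krt80 had 8.82, 6.48, 6.60 and 6.38 in P81S, 7.10, 6.34 and 7.26 in R167Q and 6.68, 6.69 and 6.84 in wildtype. Both were highest in P81S replicate 1. Krt222 ran the other way, with 7.55, 7.98, 8.39 and 8.71 in P81S, 6.85, 7.997 and 7.69 in R167Q and 7.54, 7.79 and 7.28 in wildtype. Here P81S replicate 1 was the lowest of the P81S arrays. Krt24 had 6.07, 5.26, 5.18 and 5.29 in P81S, 5.68, 5.40 and 5.46 in R167Q and 5.99, 5.81 and 5.87 in wildtype. So 3 P81S tumours and all R167Q tumours lay below every wildtype tumour. P81S replicates 2 to 4 lay below every wildtype tumour in 7 of 51 keratins, against 4664 of 18820 tested genes. Except in P81S replicate 1 and wildtype replicate 1, Krt24 lay below the median of the array's control probe sets.

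Means over a class summarise this per array. The simple keratins averaged 10.78, 7.93, 8.62 and 7.91 log2 in P81S, 8.94, 8.65 and 9.43 in R167Q and 8.78, 8.61 and 8.74 in wildtype. The squamous keratins averaged 8.05, 5.70, 6.16 and 5.83 in P81S, 6.34, 5.87 and 6.02 in R167Q and 5.86, 5.99 and 6.43 in wildtype. The hair keratins averaged 5.50, 5.26, 5.24 and 5.27 in P81S, 5.22, 5.17 and 5.13 in R167Q and 5.23, 5.26 and 5.34 in wildtype. The mean difference of P81S from wildtype was 0.10 for simple, 0.34 for squamous and 0.04 for hair keratins. Without P81S replicate 1 these were -0.56, -0.20 and -0.02. R167Q differed from wildtype by 0.30, -0.02 and -0.10. Leaving out 1 array moved the simple difference between 0.088 and 0.475 and the squamous one between -0.15 and 0.15. Of type I and type II keratins the P81S-wildtype mean difference was 0.10 and 0.21, and -0.18 and -0.12 without P81S replicate 1. These are descriptions without a test.

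**Figure D4:**
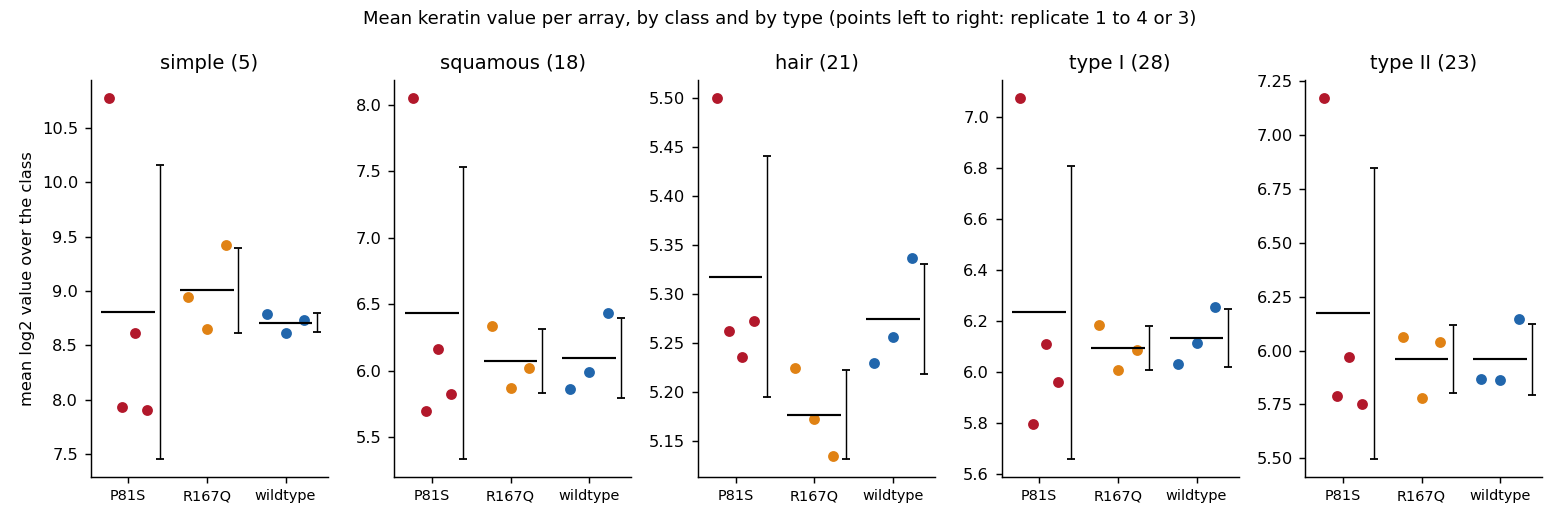
Mean log2 value of the simple, squamous and hair keratins and of the type I and type II keratins in each array, with P81S left of R167Q and wildtype, a bar at the mean and a whisker of 1 SD. P81S replicate 1 is at 10.78 for simple and 8.05 for squamous keratins, above every other array, and the hair means lie between 5.13 and 5.50.

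Both keratin clusters were high in P81S replicate 1, while other genes of chromosome 11 were low there. Type I keratins averaged 7.08, 5.80, 6.11 and 5.96 in P81S, 6.19, 6.01 and 6.09 in R167Q and 6.03, 6.12 and 6.26 in wildtype. Type II keratins averaged 7.17, 5.79, 5.97 and 5.75 in P81S, 6.06, 5.78 and 6.04 in R167Q and 5.87, 5.86 and 6.15 in wildtype. P81S replicate 1 was the highest array in 16 of 28 type I and 12 of 23 type II keratins. The shift of a chromosome was read from its genes with a mean at or above the median gene mean, keratins included. Each gene's deviation from its mean over all 10 arrays was taken, then the median per array, less the average wildtype median. Over 814 genes of chromosome 11 this shift was -0.38, -0.34, -0.02 and -0.02 in the 4 P81S arrays. It was between -0.07 and 0.04 in the other arrays. On chromosome 15 (368 genes) the shift lay between -0.05 and 0.07 in all 10. P81S replicate 2 was the lowest array in 8 of 28 type I (28.6%) and 1 of 23 type II keratins (4.35%). Over all tested genes it was the lowest in 9.59%. With each chromosome centred, the P81S-wildtype mean difference moved from 0.10 to 0.28 for type I keratins and from 0.21 to 0.17 for type II. Krt222, on chromosome 11, then passed the test in P81S against wildtype, with a difference of 0.81 (adjusted p 0.0368 by limma).

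Genes that work with keratins were read from lists, against the 34.7% of all genes called in P81S against wildtype and the 15.9% that were highest in P81S replicate 1. Of 33 measured genes of the cornified envelope, the tough shell of dead epidermal cells, 3 rose and 0 fell in P81S over wildtype, a share below the 34.7% of all genes. Lor, a main protein of that shell, had 8.45, 7.64, 7.83 and 7.99 in P81S, 6.30, 6.75 and 6.75 in R167Q and 5.93, 6.12 and 6.21 in wildtype, a difference from wildtype of 1.89 ± 0.20 log2 (adjusted p 8.66e-05 by limma). All 4 P81S tumours lay above all others, as for Krt1. Aloxe3, a lipoxygenase of the skin barrier, rose by 1.29 ± 0.25 (0.00245) and Tgm1, which cross-links the envelope, by 2.31 ± 0.55 (0.00714). In P81S against R167Q, Lor and Aloxe3 were the 2 genes called of this list, both higher. P81S replicate 1 was the highest array in 23 of the 33, where it was so in 15.9% of all genes.

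Of 19 measured desmosome and hemidesmosome genes, the junctions to which keratins anchor, 0 rose and 1 fell, where 34.7% of all genes were called. This was Pkp2, which fell by 1.69 ± 0.25 (adjusted p 0.000476 by limma). P81S replicate 1 was the highest array in 16 of the 19, against 15.9% of all genes. Of 20 general epithelial genes 0 were called by limma, and P81S replicate 1 was highest in 19. The genes of this list with the smallest p were Esrp1, Spint1 and Muc1. Their P81S-wildtype differences were -1.27, -1.12 and 1.18 log2, and -1.89, -1.72 and 0.47 without P81S replicate 1, so Muc1 went the other way. Epcam, a surface protein of epithelia, was named outside that choice with its values known. It had 9.84, 7.96, 8.06 and 7.14 in P81S, 9.10, 8.32 and 9.22 in R167Q and 8.98, 8.92 and 9.18 in wildtype. This 1 gene had the pattern of Krt8. Of 15 epithelial transcription factors, Sox9 rose and Tfap2c, Sox2, Gata3 and Grhl3 fell, 5 calls of 15, near the 34.7% of all genes. The adjusted p of Grhl3 was 0.0496 by limma. The Sox9 call was lost in 1 of the 10 fits without 1 array (adjusted p up to 0.0603 by limma). Tfap2c, of early epidermis and trophoblast, fell by 2.00 ± 0.32 (0.000666). Of 12 hair follicle regulators 0 rose and Padi3 and Shh fell, 2 calls that some fits without 1 array lost (adjusted p up to 0.141 and 0.112 by limma). Of 45 keratin-associated proteins 1 rose and 1 fell, again below 34.7%. In R167Q against wildtype 0 genes of any list read here were called.

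Of 24 gut and glandular genes Reg3g rose, by 3.02 ± 0.63 log2 (adjusted p 0.0034 by limma), and Cdx2 fell, where 34.7% of all genes were called. The Cdx2 call held in 2 of the 10 fits without 1 array (adjusted p up to 0.165 by limma). The mean of this list was 8.31, 6.48, 7.22 and 6.68 in P81S, 6.75, 6.49 and 7.36 in R167Q and 6.46, 6.68 and 6.53 in wildtype, so R167Q replicate 3, the highest R167Q array for simple keratins, was also the highest here. P81S replicate 1 was the highest array in 15 of the 24, against 15.9% of all genes. The genes of this list with the smallest p were Reg3g, Cdx2 and Spdef. Tff1, a mucus-associated peptide, was named outside that choice with its values known. It had 12.10, 7.32, 8.58 and 8.52 in P81S, 7.73, 7.32 and 9.98 in R167Q and 7.04, 7.32 and 7.11 in wildtype. Of 17 trophoblast and yolk sac genes 0 rose and 8 fell in P81S, against 34.7% of all genes called in either direction. Rhox5 fell by 3.40 ± 0.35 log2. Of 15 other intermediate filament genes 6 rose and 1 fell, against the same 34.7%. Gfap of astrocytes rose by 1.73 ± 0.35 (0.00279), Synm by 0.94 ± 0.20 (0.00356) and Nefl of neurons by 0.66 ± 0.15 (0.00613). P81S replicate 1 was highest in 1 of these 15. How far the makeup of tissue differed between tumours was not tested.

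**Figure D5:**
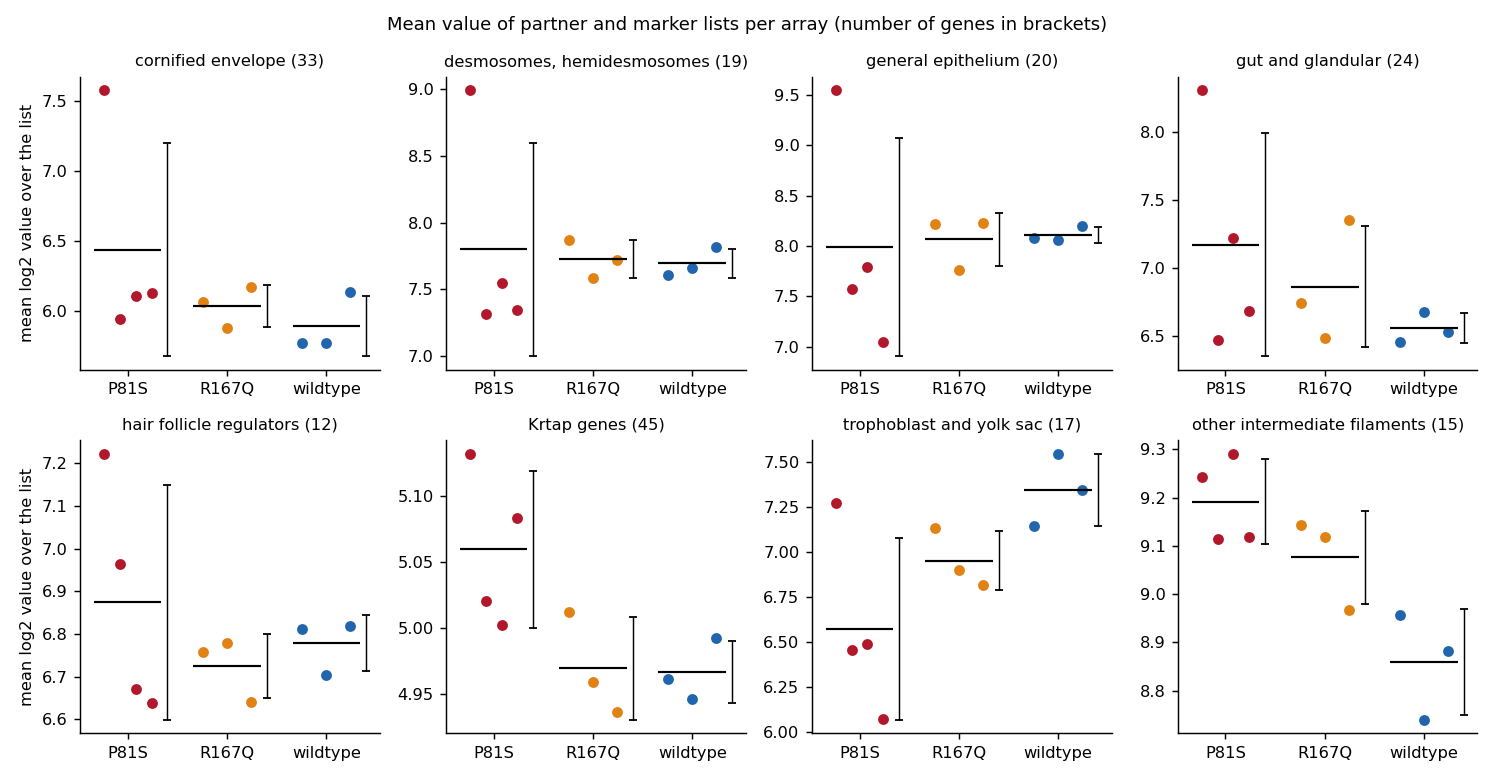
Mean log2 value of 8 partner and marker lists in each array, with P81S left of R167Q and wildtype, a bar at the mean and a whisker of 1 SD. P81S replicate 1 is highest for cornified envelope (7.57), desmosome (8.99), general epithelium (9.54) and gut and glandular genes (8.31).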

How the data were processed

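RNA of 10 tumours was hybridised to 1-colour Affymetrix arrays. The deposited values were log2 expression values per probe set; RMA and Partek appear, with no version or role, in the submitters' processing notes, and scanner files were not used here. Of 35556 probe sets, 6616 form an unannotated control block, 21218 name 1 gene, 1881 several and 5841 none. A gene took its probe set with the highest mean, giving 18820 genes; 0 value columns were left out. All arrays entered 1 limma 3.58.1 fit (lmFit, eBayes with trend, R 4.3.3, two-sided) with 3 group means, adjusted by Benjamini-Hochberg over all genes and called under 0.05. The script was tested on simulated data. Errors are SE for differences and SD for means. Folds are powers of 2 of differences between deposited log2 values.

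Per the rule, values in every array were given for simple keratins, named pairs, called keratins, the widest-ranging 3 of each class and extremes of each type. Members and lists were chosen with earlier results of these data known. Alternatives changed normalization, probe set choice, variance model, arrays and blocks. Array number limits the precision, and cross-hybridisation within the family could not be separated.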

Additional observations from a re-analysis of the deposited data

Results flagged for a closer look

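Of 27 values checked in the 4 P81S arrays (22 keratins and 5 class means), 7 had 1 tumour so far from the others that its gap to the nearest, as a share of the range, exceeded Dixon's critical value. Chance gives this in about 1 in 20 groups when members are not chosen by their values. Some of the 22 keratins were chosen for a wide range or for being called. P81S replicate 1 had also been singled out before, so that rate does not apply here and the 7 are a description. In all 7 the tumour was P81S replicate 1, on the high side. Its values were 8.05 for Krt20, 8.57 for Krt1, 9.46 for Krt10, 10.22 for Krt6a and 8.82 for Krt80. The mean of the hair keratins was 5.50 and that of the type II keratins 7.17 in this tumour. These results share the tumour and are not independent of each other.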

How the results depend on the processing

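The count of keratins called in P81S against wildtype was 1. It was 2 with quantile normalization, chromosome centring, no variance trend, or the clones as a random block with replicates 1 and 3 paired. It was 0 with only the compared groups in the fit, 6 with array weights and 6 without P81S replicates 1 and 2 together. Leaving out each array in turn gave 0 to 5. In P81S against R167Q the count was 0. It was 1 with chromosome centring, array weights, the clone block with replicates 1 and 3 paired, or without P81S replicates 3 and 4 together, 4 without P81S replicates 1 and 2 together, and 0 to 3 leaving out each array. In R167Q against wildtype it was 0 under all 26 alternatives. In P81S against wildtype the differences of the class means of the simple, squamous, hair, type I and type II keratins all turned negative without P81S replicate 1. With the replicate block the counts were 1, 0 and 0, and replicate numbers did not pair the tumours: same-numbered arrays deviated together with r of -0.28 to 0.21, over 0.1 in 2 of 9 pairs. Over all genes the block gave 5368 calls in P81S against wildtype, where the fit without it gave 6530. In P81S against R167Q all-gene calls ran from 2328 to 4916 leaving out 1 array, against 4234, and were 2419 without P81S replicates 3 and 4. In R167Q against wildtype they were 17, 42 with array weights, 26 with only the compared groups and 5 to 21 leaving out 1 array. With 4 P81S tumours of 2 clones that are not assigned to arrays, clone and tumour cannot be told apart.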

Other observations

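The probe set shared by Krt81, Krt83 and Krt87, hair keratins of 1 close family, had 6.02, 5.67, 5.88 and 6.10 log2 in P81S, 6.16, 6.11 and 5.93 in R167Q and 6.06, 6.04 and 5.92 in wildtype. The groups overlapped, and P81S replicate 1 was not the highest array.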
